A study of Mus musculus with 207 samples.

Results

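The genes described here make, sense, take up and export cholesterol. A list of 30 genes was followed by symbol through 3 tissues, and each of the 30 was found among 55536 genes in the jejunum and liver tables and among 21883 genes in the hypothalamus table. By role, 8 genes encode steps of the mevalonate and isoprenoid pathway, 11 lead from squalene to cholesterol, 3 sense sterols and control the pathway, 3 move cholesterol inside the cell or esterify it, and 5 act in uptake and export.

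The C57BL/6 mice ate 1 of 6 diets. Each diet joined a protein, CAS or WPI, to fat at FAT-20, FAT-40 or FAT-55. The protein level was labelled 30 in every diet, and the labels give no unit for either number. The abbreviations are taken to stand for casein (CAS) and isolated whey protein (WPI), which the labels do not spell out. Total RNA was sequenced from 70 pieces of jejunum, 70 of liver and 67 of hypothalamus, from 74 mice, of which 63 had all 3 tissues. With the fat levels in rising order, jejunum and liver had 11, 12 and 11 libraries on CAS and 12 at each level on WPI. Hypothalamus had 10, 12 and 11 on CAS and 11, 11 and 12 on WPI. The groups did not differ in genotype or drug by the labels, and age and time on the diet were not used here. Mouse identifiers fell into 24 stems per tissue that differ by a last digit, and the labels do not say what a shared stem means.

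Cells make cholesterol from acetyl units through mevalonate, squalene and lanosterol. When sterols in the endoplasmic reticulum membrane are low, the escort protein SCAP carries the factor SREBP-2 (gene Srebf2) to the Golgi, where it is released to switch on the synthesis genes, and INSIG1 retains the complex when sterols are high. The jejunum absorbs cholesterol through NPC1L1 and returns sterols to the lumen through the ABCG5/ABCG8 pair, while the liver makes cholesterol, esterifies it and secretes it into bile and lipoproteins. The brain makes its own cholesterol, since plasma lipoproteins do not cross the blood-brain barrier.

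Synthesis genes are known to carry sterol response elements and CCAAT boxes, the binding sites of SREBP and of the factor NF-Y, before their start. Promoter sequence from RefSeq (GRCm38.p6) was at hand for 24 of the 30 genes. The 250 bases before each start were searched on both strands. The letters CCAAT were present for 20 of the 24, against 37.5% of 27025 genes. The sterol response element TCACNCCAC was present for 1 of the 24, Hmgcs1, against 1.22% of all genes. A match is a run of letters and not a measured site. Hmgcs1, Mvk and Msmo1 are printed because they were among the synthesis genes whose levels moved in jejunum or liver. Capitals mark the motifs, and ATTGG is CCAAT read on the other strand.
Hmgcs1, chr13:119690101-119690350, plus strand: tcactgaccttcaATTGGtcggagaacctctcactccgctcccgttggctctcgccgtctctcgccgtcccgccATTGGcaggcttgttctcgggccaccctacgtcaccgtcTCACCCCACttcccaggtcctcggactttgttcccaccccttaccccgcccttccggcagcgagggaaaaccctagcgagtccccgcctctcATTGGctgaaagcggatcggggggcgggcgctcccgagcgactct
Mvk, chr5:114444019-114444268, plus strand: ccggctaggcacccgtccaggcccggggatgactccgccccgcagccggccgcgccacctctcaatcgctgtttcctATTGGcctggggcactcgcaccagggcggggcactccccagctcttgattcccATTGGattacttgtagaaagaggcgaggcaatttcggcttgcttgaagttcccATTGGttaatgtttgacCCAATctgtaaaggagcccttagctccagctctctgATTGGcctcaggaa
Msmo1, chr8:64733579-64733828, minus strand: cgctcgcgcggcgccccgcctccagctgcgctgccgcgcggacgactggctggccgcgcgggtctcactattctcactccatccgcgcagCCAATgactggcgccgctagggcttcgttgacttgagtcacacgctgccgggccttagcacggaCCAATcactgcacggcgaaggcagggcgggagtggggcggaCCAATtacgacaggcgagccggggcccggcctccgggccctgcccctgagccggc
In Hmgcs1 the response element begins 137 bases before the start, between CCAAT boxes that begin 176 and 45 bases before it. Mvk holds 5 CCAAT boxes in this window and Msmo1 holds 3. Abcg5 and Abcg8 lie head to head on chromosome 17, and the RefSeq promoter window of Abcg5 overlaps a window of Abcg8. These run from 84682962 to 84683261 for Abcg5 on the minus strand and 84682871 to 84683170 for a start of Abcg8 on the plus strand. Another window of Abcg8, 84676052 to 84676351, lies apart from that of Abcg5 and inside the Abcg5 gene (84658234 to 84683011).

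Reads assigned to genes numbered 14.4 to 16.1 M per hypothalamus library, 17.5 to 23.8 M per jejunum library and 21 to 41 M per liver library. Each tissue carried its defining markers. The summed level of 6 enterocyte genes was 13079.8 to 36679 CPM (reads of a gene per 1 M reads on genes) in jejunum, that of 6 hepatocyte genes was 64508 to 147189 CPM in liver, and that of 7 neuropeptide genes was 2896 to 20532 scaled reads in hypothalamus. Some libraries stood apart. In jejunum, WPI FAT-20 replicates 9 and 1 carried the ileal gene Fabp6 at 282 and 177 CPM, against a median of 0.16, and replicate 9 had the highest jejunum level of 14 of the 30 genes. WPI FAT-40 replicate 2 had the highest level of 3 others, Hmgcs1 (237 CPM), Idi1 (35.8) and Hsd17b7 (38.8). Its level of the ileal gene Slc10a2 was 12.7 CPM, against 99.8 and 10.8 in WPI FAT-20 replicates 9 and 1 and a median of 1.21. CAS FAT-20 replicate 6 was also at 10.8. Fabp6 in WPI FAT-40 replicate 2 did not exceed the 2.14 CPM of WPI FAT-20 replicate 6. In liver, WPI FAT-40 replicate 2 carried the pancreatic genes Ctrb1 and Pnlip at 373 and 197 CPM. In hypothalamus, 10 libraries had lower values for genes with long transcripts, described with that tissue.

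Levels per kilobase of exon put the genes in a different order in each tissue. The exon length joined all annotated exons of a gene, 10787 bases for Lss, so a gene with a long model ranks lower. In jejunum the transporters led, with a mean of 232 CPM per kilobase for Npc1l1, 144 for Abcg5 and 94.3 for Abcg8, and Soat2, which esterifies cholesterol for chylomicrons, was at 122. Stard4, which carries sterol between membranes, followed at 51.6, and the lanosterol synthase Lss (1.77) and the farnesyl diphosphate synthase Fdps (0.275) were lowest. In liver the late synthesis enzymes Sc5d (79.9) and Ebp (65.5) led, ahead of Insig1 (54.4) and Abcg5 (51.8), and Npc1l1 was at 0.00452. In hypothalamus, on the scale of scaled reads per kilobase, Srebf2 (682), Insig1 (647), Hmgcs1 (529) and Fdft1 (442) led. There Npc1l1 (1.54), Soat2 (1.36), Abcg5 (0.845) and Abcg8 (0.483) were lowest. A filter on low values kept 30 of the 30 genes in jejunum, 29 in liver (not Npc1l1) and 27 in hypothalamus (not Soat2, Abcg5 or Abcg8). Fdps levels are uncertain, since 11.7% of its 50-base runs also occur in transcripts of other genes and 26.7% of its exon bases lie under a gene on the same strand. The same share was 45.9% for Acat2, 30.7% for Fdft1, 30.5% for Idi1, 13.6% for Hmgcs1 and 13.1% for Scap, so reads of these genes may be lost or split.

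**Figure D1:**
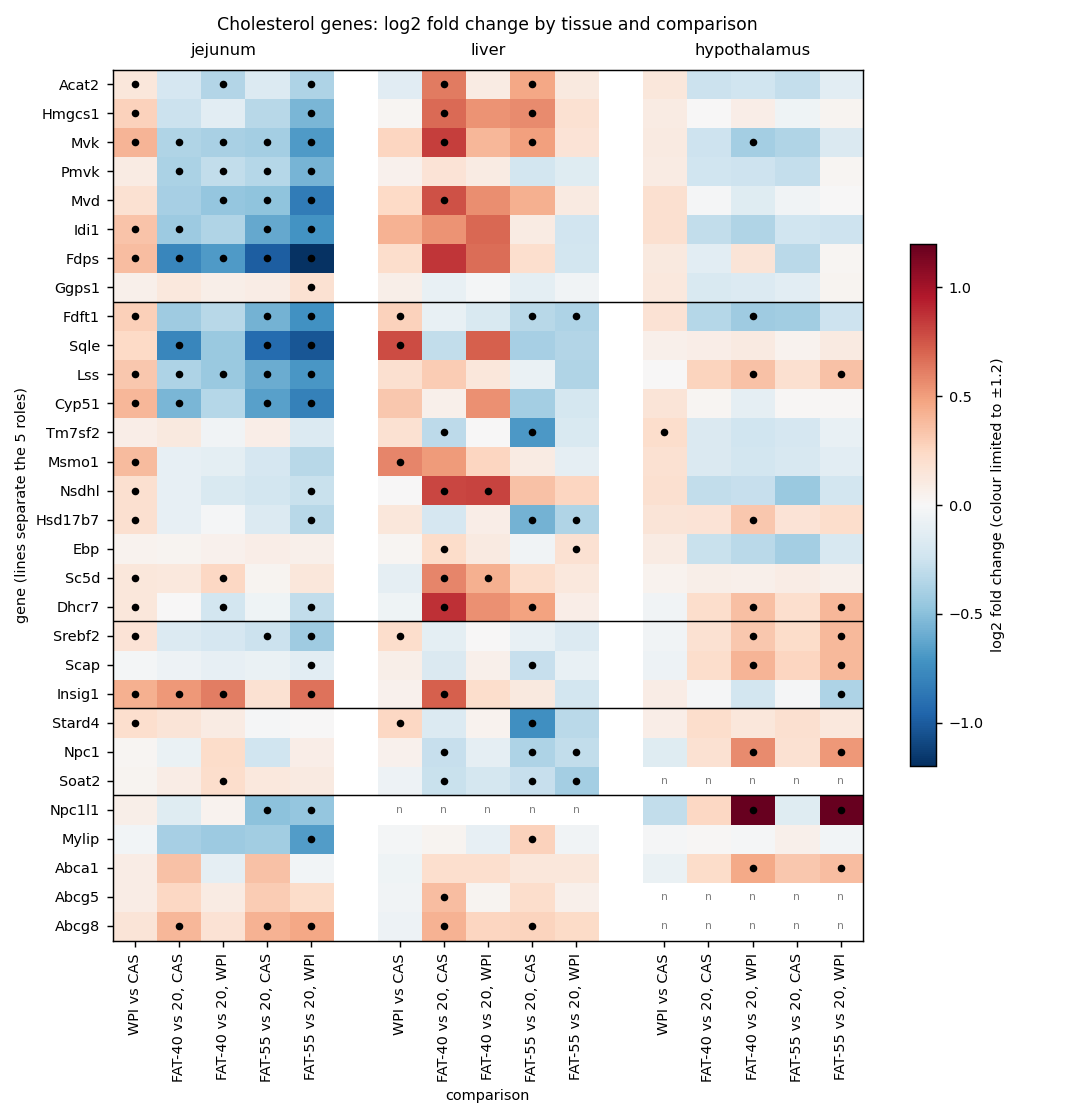
Colour gives the log2 fold change of each of the 30 genes (rows, in 5 roles) in 5 comparisons within each of 3 tissues (columns), dots mark an adjusted p under 0.05, and n marks a gene that was not tested. Jejunum shows more dots on blue in the fat comparisons, with 18 genes lower at FAT-55 on WPI, while liver shows 11 higher at FAT-40 on CAS.

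The first question was whether the protein source was accompanied by different levels of the cholesterol genes in jejunum. Over the 3 fat levels, 16 of 30 genes were higher on WPI and 0 lower (edgeR's quasi-likelihood test, adjusted p under 0.05 over all genes tested), against 6.5% of all genes tested higher and 8.83% lower. The 16 held 5 of 8 mevalonate genes, 8 of 11 genes from squalene to cholesterol, 2 of 3 sensing genes (Srebf2 and Insig1), 1 of 3 transport genes (Stard4) and 0 of 5 uptake and export genes. Their increases were small, from 0.14 to 0.43 on the log2 scale, and the median over the 30 genes was 0.15 against -0.01 over all genes. Markers of other cell types differed in the same comparison. The summed level of 6 enterocyte genes had medians of 17121, 21377 and 20417 CPM on CAS in rising order of fat and 22765, 23305 and 23777 on WPI, over 13079.8 to 26935 and 15419 to 36679 in single libraries. That of 5 leukocyte genes had medians of 93.7, 80.9 and 73.5 CPM on CAS and 65.7, 73.6 and 60.2 on WPI, over 57.3 to 286 and 41.4 to 98.4 in single libraries. Enterocyte markers were thus higher and leukocyte markers lower on WPI at each fat level by their medians, and their part in the result was not tested. In bulk tissue, fewer cells of a type and less RNA per cell cannot be told apart.

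Mvk, mevalonate kinase (ENSMUSG00000041939, chromosome 5, 114444269 to 114460591), had medians of 13.4, 10.3 and 9.02 CPM on CAS, from the lowest to the highest fat level. On WPI its medians were 16.2, 14.1 and 11.7 CPM, a log2 difference of 0.41 ± 0.07 (SE, adjusted p = 2.6e-05), and 34 of 36 WPI libraries lay above the median of their fat level on CAS. Insig1, the sterol-sensing brake on SREBP (ENSMUSG00000045294, chromosome 5, 28071363 to 28078662), rose by 0.43 ± 0.09 (adjusted p = 0.00016, 31 of 36 libraries). Msmo1, a methylsterol oxidase, rose by 0.38 ± 0.08 (adjusted p = 0.00046, 32 of 36), and Lss by 0.32 ± 0.08 (adjusted p = 0.0019, 32 of 36). Genes encoding early, middle and late steps were thus among those higher on WPI, and the groups overlapped at each fat level.

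At single fat levels fewer genes passed. At FAT-20, Dhcr7, the last enzyme of 1 branch of the pathway, rose by 0.30 ± 0.07 (adjusted p = 0.0029) and Mvk by 0.51 ± 0.13 (adjusted p = 0.0069), each in 11 of 12 libraries, against 2.66% of all genes tested higher and 3.57% lower. At FAT-40, Mvk alone of the 30 rose, by 0.48 ± 0.12 (adjusted p = 0.045), against 0.277% of all genes higher and 0.294% lower. At FAT-55, Insig1 alone rose, by 0.72 ± 0.15 (adjusted p = 0.0021, 12 of 12 libraries), against 0.889% of all genes higher and 2.81% lower. Leaving out the 2 libraries with ileal genes, both from WPI FAT-20, left 11 of the 16 genes over all fat levels. Hmgcs1 then had an adjusted p of 0.06, Acat2 0.071, Srebf2 0.099, Fdft1 0.11 and Fdps 0.11. WPI FAT-40 replicate 2, with Hmgcs1 at 237 CPM and Sqle at 85.2, stayed in that fit, and its part was not tested.

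Squalene epoxidase, Sqle (ENSMUSG00000022351, chromosome 15, 59315077 to 59331192), catalyses the first oxygen-adding step to sterols. On CAS its jejunum level was 23.1, 36.4 and 74.8 CPM (lowest, median, highest) at FAT-20, 17.2, 23.6 and 29.2 at FAT-40, and 12.3, 19.0 and 33.2 at FAT-55. On WPI it was 19.8, 41.1 and 100.05 CPM at FAT-20, 14.3, 29.9 and 85.2 at FAT-40, and 16.2, 21.2 and 32.8 at FAT-55. The highest FAT-20 level, 100.05 CPM, was that of the WPI library with the most Fabp6. Sqle was high at FAT-20 and low at FAT-55 on both proteins, and all of these groups overlapped.

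At the higher fat levels, more of the 30 jejunum genes fell than rose. FAT-40 and FAT-55 were each compared with the same FAT-20 libraries, so these 2 comparisons share their controls. At FAT-55 on CAS, 11 genes were lower and 1 higher, against 13.3% of all genes tested lower and 14.4% higher. At FAT-55 on WPI, 18 were lower and 3 higher, against 16.6% lower and 14.2% higher. At FAT-40 the counts were 7 lower and 2 higher on CAS (12.4% of all genes lower, 12.7% higher) and 7 lower and 3 higher on WPI (13% lower, 12.7% higher). By role at FAT-55, 5 of 8 mevalonate genes fell on CAS and 7 of 8 on WPI, 4 of 11 and 7 of 11 genes from squalene to cholesterol fell, and 0 of 3 transport and ester genes passed on either protein. The median log2 fold change of the 30 genes was -0.21 on CAS and -0.33 on WPI, against -0.01 and -0.03 over all genes.

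At FAT-55 on CAS the call with the smallest adjusted p was Npc1l1, the cholesterol uptake transporter of the brush border (ENSMUSG00000020447, chromosome 11, 6211013 to 6230143). On CAS it was at 786, 1152 and 1781 CPM (lowest, median, highest) at FAT-20, 867, 1038 and 1367 at FAT-40, and 669, 754 and 1076 at FAT-55. The WPI libraries were at 847, 1139.8 and 1471 CPM at FAT-20, 999, 1221 and 1325 at FAT-40, and 679.7, 848 and 984 at FAT-55. It fell by 0.49 ± 0.09 on CAS (adjusted p = 9.8e-05) and by 0.46 ± 0.09 on WPI (adjusted p = 7.2e-05) at FAT-55, where 11 of 11 and 12 of 12 libraries lay below the FAT-20 median. It passed at FAT-40 on neither protein, so its lower level was seen at the highest fat level.

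Among the enzymes at FAT-55, Sqle fell by 0.92 ± 0.21 on CAS (adjusted p = 0.00063, 11 of 11 libraries) and by 1.03 ± 0.20 on WPI (adjusted p = 4.8e-05, 12 of 12). Lss fell by 0.60 ± 0.14 (adjusted p = 0.00083) and 0.70 ± 0.13 (adjusted p = 3.2e-05). On WPI, Mvk fell by 0.68 ± 0.12 (adjusted p = 2.1e-05) and Pmvk, the next kinase, by 0.56 ± 0.11 (adjusted p = 4e-05). Fdps fell by 0.99 ± 0.24 on CAS (adjusted p = 0.0014) and 1.19 ± 0.23 on WPI (adjusted p = 4e-05), at levels of 0.279 to 3.81 CPM over all jejunum libraries. The other genes lower on WPI fell by 0.13 to 0.84. Steps at both ends of the pathway were among them, from Acat2 and Hmgcs1 to Dhcr7.

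Insig1 went the other way. On CAS it was at 29.0, 40.6 and 57.7 CPM (lowest, median, highest) at FAT-20, 40.7, 58.7 and 82.4 at FAT-40, and 29.2, 50.4 and 64.7 at FAT-55. With WPI its level was 34.6, 44.7 and 88.2 CPM at FAT-20, 50, 71.8 and 156 at FAT-40, and 57.6, 84.8 and 100.1 at FAT-55. It rose by 0.52 ± 0.15 at FAT-40 on CAS (adjusted p = 0.0082), by 0.61 ± 0.15 at FAT-40 on WPI (adjusted p = 0.0016) and by 0.65 ± 0.15 at FAT-55 on WPI (adjusted p = 0.00046), in 12 of 12 libraries each time. At FAT-55 on CAS the difference was 0.18 ± 0.15 (adjusted p = 0.4).

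Abcg8, a subunit of the sterol exporter, was higher in 3 of the 4 fat comparisons. Its medians were 264, 354 and 359.9 CPM on CAS from FAT-20 to FAT-55 and 313, 359 and 395 on WPI. It rose by 0.40 ± 0.13 at FAT-40 on CAS (adjusted p = 0.021), 0.42 ± 0.14 at FAT-55 on CAS (adjusted p = 0.017) and 0.46 ± 0.13 at FAT-55 on WPI (adjusted p = 0.0054). Its partner Abcg5 did not pass in any of these. Abcg5 was at 208, 329 and 539 CPM (lowest, median, highest) on CAS FAT-20, 327, 396 and 442 on CAS FAT-40, and 276, 416 and 536 on CAS FAT-55. On WPI the values were 231, 366 and 488 CPM at FAT-20, 243, 407 and 516 at FAT-40, and 330.2, 409.9 and 724 at FAT-55. Its medians had the same order as those of Abcg8 on both proteins.

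Mylip, a ubiquitin ligase that degrades lipoprotein receptors and a target of the sterol receptor LXR, was at 11.4, 16.6 and 24.0 CPM (lowest, median, highest) on CAS FAT-20, 6.91, 11.8 and 22.4 on CAS FAT-40, and 6.13, 13.6 and 23.6 on CAS FAT-55. Mice on WPI had 10.8, 17.6 and 26.2 CPM at FAT-20, 4.92, 14.6 and 19.4 at FAT-40, and 5.83, 10.3 and 18 at FAT-55. It passed at FAT-55 on WPI, with a fall of 0.67 ± 0.21 (adjusted p = 0.0095, 11 of 12 libraries). Abca1, which loads cholesterol onto lipoprotein particles, did not pass in any jejunum comparison, and its medians were 114, 155 and 123 CPM on CAS and 159.5, 129 and 155 on WPI. Its libraries ranged from 44.4 to 245 CPM, a wider spread than the gaps between those medians.

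Hmgcs1, the synthase that makes the precursor of mevalonate, was at 66.4, 85.4 and 141 CPM (lowest, median, highest) on CAS FAT-20, 55.1, 75.7 and 104 on CAS FAT-40, and 52.3, 70.7 and 108 on CAS FAT-55. The WPI libraries were at 65.8, 106 and 179 CPM at FAT-20, 60.6, 88.2 and 237 at FAT-40, and 57.9, 75.2 and 121 at FAT-55. It fell by 0.55 ± 0.15 at FAT-55 on WPI (adjusted p = 0.0042), and on CAS the difference was -0.33 ± 0.16 (adjusted p = 0.11). At FAT-40, the smallest adjusted p among falls on CAS was that of Sqle (-0.78 ± 0.20, 0.0028), followed by Pmvk (-0.38 ± 0.11, 0.0076), Fdps (-0.78 ± 0.23, 0.0094) and Cyp51 (-0.55 ± 0.17, 0.016). On WPI it was that of Acat2 (-0.35 ± 0.09, 0.002), followed by Lss (-0.45 ± 0.13, 0.0078), Dhcr7 (-0.22 ± 0.07, 0.009) and Mvk (-0.39 ± 0.12, 0.013). Risers at FAT-40 on WPI besides Insig1 were Sc5d (0.25 ± 0.06, 0.0022) and Soat2 (0.21 ± 0.07, 0.021). Ggps1, which makes geranylgeranyl diphosphate, rose by 0.18 ± 0.06 at FAT-55 on WPI (adjusted p = 0.012).

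**Figure D2:**
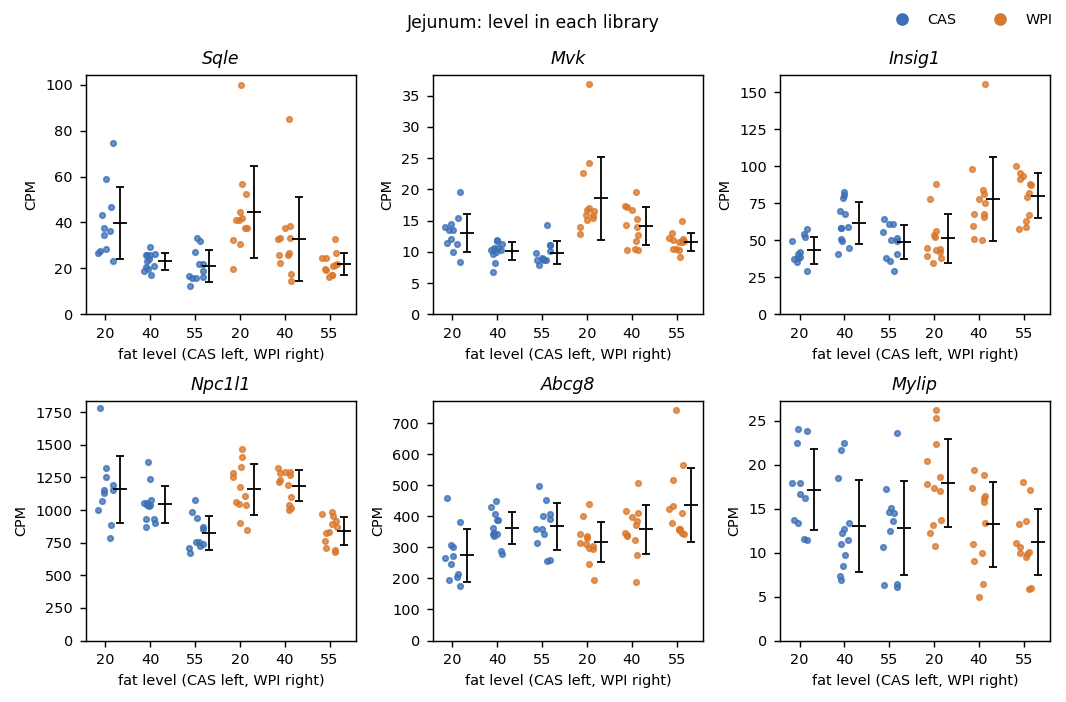
Level in CPM of 6 genes in each jejunum library (points) by fat level and protein source, with the group mean and SD in black (n = 11 or 12). Sqle, Mvk and Npc1l1 lie lower at FAT-55 than at FAT-20, and Insig1 on WPI lies higher, with a median of 84.8 against 44.7 CPM.

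The fat responses on the 2 proteins were compared by their difference. In jejunum, 0 of 30 genes passed that test with edgeR and 0 with DESeq2, against 0% of all genes tested, and 3 had an unadjusted p under 0.05. The larger count on WPI than on CAS is therefore not shown to be a difference between the proteins.

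Markers of other cell types moved with the fat level in jejunum. The summed level of 7 fat cell genes had medians of 33.1 and 69.8 CPM at FAT-20 on CAS and WPI, with single libraries from 7.06 to 478. At FAT-40 and FAT-55 the 4 medians were 0.432 to 0.95 CPM, with single libraries from 0.136 to 99.9, and Adipoq, the hormone gene that defines fat cells, had a median of 0. The summed level of 8 smooth muscle genes had medians of 1197 and 1368 CPM at FAT-20 and 564 to 737 at the higher fat levels, and single libraries ranged from 320.4 to 4003. With fat cell and smooth muscle scores as covariates, the counts in the 4 fat comparisons went to 0, 0, 1 and 1. The 2 calls were Npc1l1 on CAS (-0.40 ± 0.12, adjusted p = 0.042) and Dhcr7 on WPI (-0.41 ± 0.10, adjusted p = 0.011), both at FAT-55. Sqle was then at -0.71 ± 0.26 on CAS (adjusted p = 0.088) and -0.63 ± 0.28 on WPI (adjusted p = 0.27) at FAT-55, and Insig1 on WPI at 0.41 ± 0.19 (adjusted p = 0.31). All 72 values called in jejunum kept their direction with these covariates. Since the markers fell with the fat level, their part and that of the diet cannot be told apart. In the comparison of WPI with CAS over all fat levels, 12 of the 16 genes were called with the covariates, with Mvk at 0.38 ± 0.07 (adjusted p = 0.00012) and Insig1 at 0.43 ± 0.08 (adjusted p = 0.00014).

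Among 45 other genes of cholesterol and related lipid handling, 41 were tested in jejunum, and on WPI 9 rose and 6 fell over the fat levels (22% and 14.6%, against 6.5% and 8.83% of all genes). Srebf1, the factor of fatty acid synthesis, rose by 0.73 ± 0.11 (adjusted p = 1e-06), and Gramd1a, which moves sterol from the plasma membrane, fell by 0.37 ± 0.06 (adjusted p = 6.4e-06). At FAT-55, 11 rose and 3 fell on CAS (26.8% and 7.32%, against 14.4% and 13.3% of all genes) and 13 rose and 5 fell on WPI (31.7% and 12.2%, against 14.2% and 16.6%). Lipa, the lysosomal lipase that frees cholesterol from its esters, rose by 0.99 ± 0.15 on CAS (adjusted p = 3.6e-06) and 1.2 ± 0.15 on WPI (adjusted p = 1.9e-08). Lpcat3, a phospholipid acyltransferase and LXR target, rose by 0.41 ± 0.07 (adjusted p = 4.6e-06) and 0.42 ± 0.06 (adjusted p = 1.2e-06).

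In liver, fewer of the 30 genes differed by protein source. Over the fat levels, 5 of 29 tested genes rose on WPI and 0 fell, against 7.1% of all genes tested higher and 7.56% lower. They were Fdft1, which makes squalene (0.28 ± 0.07, adjusted p = 0.0027, higher than the matching CAS median in 28 of 36 libraries), Sqle (0.78 ± 0.21, 0.0052, 30 of 36), Msmo1 (0.59 ± 0.16, 0.0086, 28 of 36), Srebf2 (0.21 ± 0.06, 0.02, 26 of 36) and Stard4 (0.25 ± 0.08, 0.029, 26 of 36). The median over the 29 genes was 0.07, against 0 over all genes. Members of the mevalonate part (0 of 8) and of uptake and export (0 of 4) did not pass.

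Sqle in liver was at 5.24, 12.4 and 23.6 CPM (lowest, median, highest) on CAS FAT-20, 5.2, 7.56 and 30 on CAS FAT-40, and 2.78, 5.84 and 25.5 on CAS FAT-55. With WPI its level was 6.3, 15.3 and 46.7 CPM at FAT-20, 5.65, 20.9 and 70.7 at FAT-40, and 6.3, 12.5 and 27.8 at FAT-55. At FAT-40 it rose on WPI by 1.44 ± 0.35 (adjusted p = 0.005, 11 of 12 libraries), the sole member called there, against 3.85% of all genes higher and 4.37% lower. With reads summed by identifier stem the difference was 1.38 with an adjusted p of 0.067. WPI libraries at FAT-40 spread over the widest range of Sqle levels, and the groups overlapped.

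At FAT-55, 3 genes rose on WPI, against 7.07% of all genes higher and 7.43% lower. They were Tm7sf2, a sterol reductase (0.41 ± 0.11, adjusted p = 0.0086, 12 of 12), Stard4 (0.47 ± 0.15, 0.021, 11 of 12) and Ebp, a sterol isomerase (0.20 ± 0.07, 0.045, 12 of 12). At FAT-20, 0 passed with edgeR and 0 with DESeq2, against 0.512% of all genes, and 4 had an unadjusted p under 0.05.

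In liver, some of the genes rose and others fell with fat, again against shared FAT-20 libraries. At FAT-40 on CAS, 11 genes rose and 3 fell, against 15.8% of all genes higher and 14.4% lower. The risers were 4 of 8 mevalonate genes, 4 of 11 genes from squalene to cholesterol, Insig1, Abcg5 and Abcg8. Sc5d, a sterol desaturase, rose by 0.59 ± 0.11 (adjusted p = 2.5e-05), Acat2, the thiolase that starts the pathway, by 0.62 ± 0.13 (adjusted p = 0.00018), Dhcr7 by 0.88 ± 0.19 (adjusted p = 0.00024) and Mvk by 0.83 ± 0.20 (adjusted p = 0.00066). Between 11 and 12 of 12 libraries lay above the FAT-20 median for each of these 4. The falls were Soat2 (-0.27 ± 0.08, 0.005), Tm7sf2 (-0.31 ± 0.11, 0.028) and the lysosomal sterol transporter Npc1 (-0.28 ± 0.10, 0.032).

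At FAT-40 on WPI, Nsdhl, a sterol dehydrogenase (0.81 ± 0.20, adjusted p = 0.0075, 10 of 12), and Sc5d (0.43 ± 0.11, 0.0075, 12 of 12) rose and none of the other 27 tested members passed with edgeR, against 4.19% of all genes higher and 2.35% lower. Summed by identifier stem, 0 passed on WPI and 9 on CAS.

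At FAT-55 on CAS, 6 genes rose and 7 fell, against 22.6% of all genes higher and 20.7% lower, so both counts were near the background. Acat2 (0.46 ± 0.13, adjusted p = 0.0037), Mylip (0.28 ± 0.09, 0.0065), Hmgcs1 (0.57 ± 0.21, 0.025) and Dhcr7 (0.48 ± 0.19, 0.038) rose. Tm7sf2 (-0.69 ± 0.12, 1.8e-06), Stard4 (-0.74 ± 0.15, 5e-05), Hsd17b7 (-0.57 ± 0.13, 0.00018) and Soat2 (-0.28 ± 0.08, 0.0033) fell. At FAT-55 on WPI, Ebp rose (0.18 ± 0.07, 0.047) and 4 fell, against 14.6% of all genes higher and 12% lower. The falls were Soat2 (-0.41 ± 0.08, 3.4e-05, 12 of 12 libraries), Fdft1 (-0.37 ± 0.12, 0.013), Hsd17b7 (-0.36 ± 0.12, 0.021) and Npc1 (-0.30 ± 0.10, 0.023).

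Markers of liver cell types moved with fat on CAS. The summed level of 6 hepatocyte genes had medians of 99533, 90852 and 80798 CPM in rising order of fat on CAS, with single libraries at 81099 to 112207 on FAT-20 and 70649 to 86968 on FAT-55. On WPI the medians were 99392, 96582 and 94581. Most of this sum was Alb, with medians of 77619, 69025 and 62353 CPM on CAS. Of the other hepatocyte genes on CAS, Ttr (4839, 5464 and 5029) was not lower at FAT-55 than at FAT-20, and the rest were. Cps1 was higher at FAT-40 (3934) than at FAT-20 (3493). The summed level of 5 leukocyte genes had medians of 33.6, 40.8 and 59.3 CPM on CAS and 45, 46.7 and 44.6 on WPI, over 18.2 to 98.2 in single libraries. The part of these markers in the liver results, the comparison of WPI with CAS at FAT-55 included, was not tested.

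Tm7sf2 (ENSMUSG00000024799, chromosome 19, 6062821 to 6068373) was at 51.5, 68.6 and 100.1 CPM (lowest, median, highest) on CAS FAT-20, 45.5, 57.0 and 78.3 on CAS FAT-40, and 32.8, 40.8 and 72.3 on CAS FAT-55. On WPI the values were 52.8, 66.2 and 82.9 CPM at FAT-20, 54.6, 63.5 and 86.3 at FAT-40, and 42.3, 55.7 and 101 at FAT-55. CAS FAT-55 had the lowest libraries, and the 2 groups of FAT-55 overlapped. Its response to FAT-55 differed between the proteins by 0.51 ± 0.16 (adjusted p = 0.038), the sole member called in that test, against 3% of all genes with a positive difference and 3.82% with a negative one. With reads summed by identifier stem the difference was 0.48 ± 0.16 (adjusted p = 0.22), and without the filter on low counts 0.51 (adjusted p = 0.07). Of its exon bases, 12.1% overlap the neighbouring gene Vps51 on the same strand.

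Soat2, the enzyme that makes cholesterol esters, was at 41.1, 51.3 and 57.6 CPM (lowest, median, highest) on CAS FAT-20, 33.5, 40.1 and 52.0 on CAS FAT-40, and 37.3, 40.8 and 46.6 on CAS FAT-55. Mice on WPI had 40.6, 48.6 and 60.5 CPM at FAT-20, 34.9, 40.9 and 61.2 at FAT-40, and 28.0, 37.3 and 43.1 at FAT-55. It was lower at FAT-55 than at FAT-20 on both proteins. Stard4 had medians of 125, 118 and 76.5 CPM on CAS and 139.7, 127 and 109 on WPI.

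Hmgcs1 in liver was at 49.2, 64.1 and 128 CPM (lowest, median, highest) on CAS FAT-20, 61.3, 94.4 and 203 on CAS FAT-40, and 55, 95.5 and 152 on CAS FAT-55. The WPI libraries were at 50.3, 70.1 and 126 CPM at FAT-20, 59.4, 93.6 and 247 at FAT-40, and 64.9, 81.7 and 132 at FAT-55. It rose on CAS at FAT-40 (0.68 ± 0.21, adjusted p = 0.009) and at FAT-55, where 9 of 11 libraries lay above the FAT-20 median. Insig1 was at 93.1, 133 and 173 CPM on CAS FAT-20, 124, 201 and 526 on CAS FAT-40, and 81.2, 135 and 238 on CAS FAT-55. On WPI its libraries ran from 56.8 to 296 CPM, with medians of 152, 186 and 146. Insig1 rose at FAT-40 on CAS (0.72 ± 0.21, adjusted p = 0.0058), where its highest library, at 526 CPM, stood far above the median of 201.

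Abcg5 in liver, where the pair exports sterols into bile, was at 88.0, 119.8 and 162 CPM (lowest, median, highest) on CAS FAT-20, 137, 159 and 195 on CAS FAT-40, and 84.8, 129 and 241 on CAS FAT-55. With WPI its level was 107, 136 and 172 CPM at FAT-20, 88.2, 135 and 223 at FAT-40, and 98.5, 148 and 179 at FAT-55. It rose at FAT-40 on CAS (0.37 ± 0.12, adjusted p = 0.013, 12 of 12 libraries), together with Abcg8 (0.42 ± 0.11, adjusted p = 0.0019). Mylip had medians of 17.6, 19.2 and 22.6 CPM on CAS and 19.5, 19.2 and 19.6 on WPI, within 14.1 to 27.0 over all libraries. Abca1 did not pass in any liver comparison, with medians of 240.2, 264 and 249 CPM on CAS and 221, 248 and 267 on WPI. Npc1l1 reached at most 0.139 CPM in a liver library, and leaving out the library with pancreatic genes changed no count of called members.

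**Figure D3:**
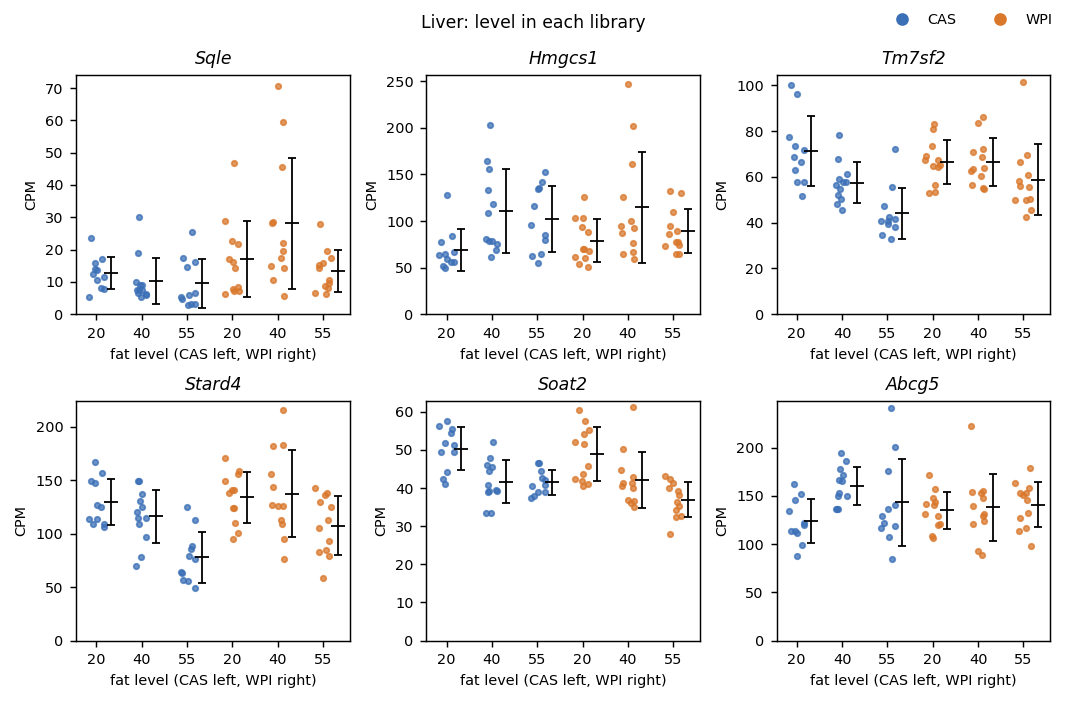
Level in CPM of 6 genes in each liver library (points) by fat level and protein source, with the group mean and SD in black (n = 11 or 12). Tm7sf2 and Stard4 are lowest on CAS at FAT-55, with medians of 40.8 and 76.5 CPM, and Sqle spreads widest on WPI at FAT-40.

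Of the 45 other genes, 44 were tested in liver, and 14 rose and 8 fell at FAT-40 on CAS (31.8% and 18.2%, against 15.8% and 14.4% of all genes). Srebf1 rose there by 1.99 ± 0.23 (adjusted p = 4e-10). At FAT-55 on CAS, 9 rose and 10 fell (20.5% and 22.7%, near the 22.6% and 20.7% of all genes), with Srebf1 at 1.36 ± 0.23 (adjusted p = 1.6e-06) and the exporter Abcg1 at 0.59 ± 0.10 (adjusted p = 3.5e-06). On WPI over the fat levels 7 rose and 7 fell (15.9% each, against 7.1% and 7.56% of all genes), among them Lcat, which esterifies cholesterol in plasma (0.23 ± 0.04, 2.6e-05), the bile acid receptor Nr1h4 (0.27 ± 0.05, 3.4e-05) and Cyp7b1 of bile acid synthesis (0.62 ± 0.13, 0.00061). The response to FAT-55 differed between the proteins for 5 of the 44, including Gramd1b (-0.65 ± 0.13, 0.0017) and Abcg1 (-0.53 ± 0.14, 0.015).

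Jejunum and liver came from the same 70 mice, so the difference of the 2 tissues within a mouse could be tested for a diet effect. At FAT-55 the response differed between the tissues for 14 of 29 genes on CAS, against 44.6% of all genes tested, and for 12 of 29 on WPI, against 30.4%. The share of members was near the background on CAS, and differing responses were common among all genes. On CAS the difference of responses, jejunum minus liver, was 0.78 ± 0.12 for Tm7sf2 (limma, adjusted p = 7.9e-07), 0.78 ± 0.14 for Stard4 (4.5e-06), 0.41 ± 0.10 for Soat2 (0.00085) and 0.42 ± 0.13 for Hsd17b7 (0.0075). It was -0.88 ± 0.20 for Mvk (0.0003), -0.86 ± 0.22 for Hmgcs1 (0.0012), -0.59 ± 0.16 for Acat2 (0.0021) and -0.79 ± 0.23 for Mylip (0.0035).

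Mvk moved in opposite directions in the 2 tissues. On CAS it fell in jejunum by 0.41 ± 0.13 (adjusted p = 0.014) and rose in liver by 0.49 ± 0.20 (adjusted p = 0.042). Stard4 fell in liver, and in jejunum its difference was -0.01 ± 0.10 (adjusted p = 0.96). On WPI the difference of responses was 0.52 ± 0.10 for Soat2 (adjusted p = 4.2e-05), 0.85 ± 0.24 for Insig1 (0.0044), 0.23 ± 0.08 for Ggps1 (0.026) and 0.34 ± 0.13 for Stard4 (0.036). It was -0.92 ± 0.19 for Mvk (0.00017), -0.94 ± 0.28 for Mvd (0.0068), -0.72 ± 0.21 for Hmgcs1 (0.0069) and -0.48 ± 0.15 for Acat2 (0.014). On both proteins, Mvk, Mvd, Fdps, Hmgcs1, Acat2, Nsdhl and Mylip were called with a negative difference and Soat2, Stard4 and Ggps1 with a positive one. The fat cell and smooth muscle markers given for jejunum move with these differences too, as do the hepatocyte markers given for liver on CAS. On WPI the summed hepatocyte medians were 99392 CPM at FAT-20 and 94581 at FAT-55. The part of these markers was not tested.

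For the protein source, 3 of 29 genes differed between the tissues, against 15.8% of all genes tested. Sc5d (0.23 ± 0.07, adjusted p = 0.017) and Acat2 (0.29 ± 0.09, 0.021) responded to WPI more positively in jejunum, and Sqle (-0.56 ± 0.20, 0.047) more positively in liver.

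**Figure D4:**
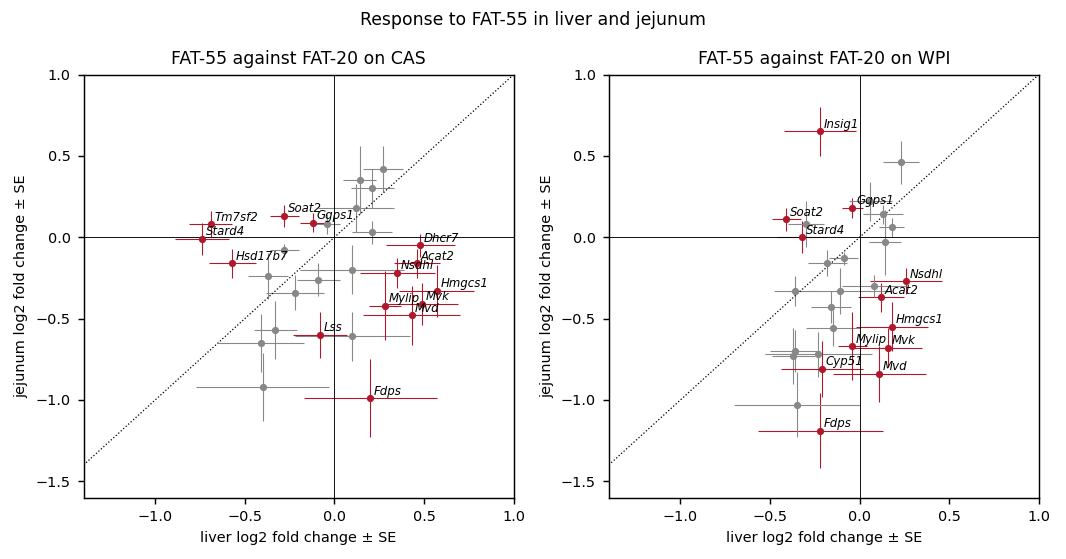
Log2 fold change at FAT-55 against FAT-20 in liver (x axis) and jejunum (y axis), with SE bars, for 29 genes on CAS and on WPI, and the dotted line marks equal responses. Named points in red passed the test of the difference, 14 on CAS and 12 on WPI, with Mvk, Hmgcs1 and Acat2 below the line on both.

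In hypothalamus the protein source moved few of the genes. Over the fat levels Tm7sf2 rose on WPI (0.21 ± 0.06, limma, adjusted p = 0.042, 28 of 34 libraries), the sole member of 27 called, against 0.324% of all genes tested higher and 1.83% lower. Its levels were 245 to 538 scaled reads on CAS FAT-20 and 265 to 578 on WPI FAT-20, and without the filter on low values or with means by identifier stem 0 members were called. At single fat levels 0 members passed with limma and 0 with edgeR on recovered reads. The background there was 1.01% of all genes at FAT-20, 0% at FAT-40 and 5.92% at FAT-55, and 5, 2 and 8 members had an unadjusted p under 0.05.

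For fat on CAS, 0 members passed with limma at FAT-40 (0.236% of all genes, 6 members at an unadjusted p under 0.05, 0 with edgeR) and 0 at FAT-55 (2.33% of all genes, 11 at an unadjusted p under 0.05, 4 with edgeR). For fat on WPI, 8 rose and 2 fell at FAT-40, against 38% of all genes higher and 14.6% lower, and 7 rose and 1 fell at FAT-55, against 29.5% higher and 5.84% lower. The share of members higher was below the background at FAT-40 and close to it at FAT-55. The response to FAT-55 did not differ between proteins for any of 27 members with limma (3.5% of all genes), with 2 at an unadjusted p under 0.05 and 1 called with edgeR.

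Srebf2 (ENSMUSG00000022463, chromosome 15, 82147181 to 82205379) was at 3064, 4260 and 4884 scaled reads (lowest, median, highest) on WPI FAT-20, 4819, 5072 and 5309 on WPI FAT-40, and 4402, 5427 and 6026 on WPI FAT-55. It rose by 0.32 ± 0.06 at FAT-40 (adjusted p = 0.00054, 11 of 11 libraries) and 0.39 ± 0.06 at FAT-55 (adjusted p = 4.3e-06, 12 of 12). On CAS its medians were 4574, 5103 and 5272. Scap, Dhcr7 and Npc1 rose with it on WPI. Dhcr7 rose by 0.36 ± 0.08 at FAT-40 (adjusted p = 0.00086) and 0.40 ± 0.08 at FAT-55 (adjusted p = 9.8e-05). Npc1 rose by 0.57 ± 0.14 (adjusted p = 0.0016) and 0.52 ± 0.13 (0.0027), and Scap by 0.41 ± 0.10 (0.0023) and 0.39 ± 0.10 (0.0028). Mvk (-0.41 ± 0.14, 0.012) and Fdft1 (-0.43 ± 0.17, 0.03) fell at FAT-40 and Insig1 (-0.37 ± 0.10, 0.003) fell at FAT-55.

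These changes moved with a trend of transcript length. Across 14824 genes the first principal component held 45.1% of the variance, and its scores correlated with the length trend of the libraries at r = 0.998 (67 libraries, given as a description). A total of 10 libraries had a length trend under -0.2 (log2 per SD of log2 length): CAS FAT-20 replicates 5, 6 and 7, WPI FAT-20 replicates 1, 3, 4, 5 and 6, and WPI FAT-55 replicates 5 and 6. Without these 10, Srebf2 was at 0.13 ± 0.04 at FAT-40 (adjusted p = 0.035) and 0.25 ± 0.04 at FAT-55 (adjusted p = 1.4e-06), and the counts of called members were 2 and 5. Mvk at FAT-40 was then at -0.08 ± 0.07 (adjusted p = 0.54). With the length and GC trend of each library removed, Srebf2 was at -0.13 at FAT-40. At FAT-55 on WPI, 7 of the 8 called members then kept their direction, Srebf2 among them, and 5 of the 8 kept their call.

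Npc1l1 was near the floor in hypothalamus, at 0 to 10.7 scaled reads on WPI FAT-20 (median 2.77), 1.95 to 32.6 on WPI FAT-40 (median 6.89) and 2.01 to 11.8 on WPI FAT-55 (median 7.41). It rose by 1.42 ± 0.38 at FAT-40 (adjusted p = 0.003) and 1.32 ± 0.37 at FAT-55 (adjusted p = 0.0046), on the log2(value + 1) scale. On WPI the 6 enterocyte genes moved with it, with summed medians of 15.8, 57.7 and 68.9 scaled reads from FAT-20 to FAT-55. On CAS these medians were 24.2, 58.4 and 58.5, but Npc1l1 was not called there. The highest log2 fold change of any tested member on CAS was 0.27 at FAT-40 and 0.32 at FAT-55. The library with the highest Npc1l1, WPI FAT-40 replicate 8, also held the intestinal genes Fabp2 at 205, Vil1 at 98.8 and Sis at 78.4, and the part of intestinal RNA was not tested. Without the 10 libraries above, Npc1l1 was at 0.65 ± 0.39 at FAT-40 (adjusted p = 0.33).

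In hypothalamus, Sqle had medians of 1437, 1531 and 1466 scaled reads on CAS and 1478, 1553 and 1564 on WPI, within 1232 to 1864 over the 67 libraries. Hmgcs1 had medians of 2357, 2389 and 2254 on CAS and 2354, 2583 and 2462 on WPI. Insig1 had medians of 1903, 1919 and 1887 on CAS and 2204, 2144 and 1848 on WPI, Abca1 967, 1033 and 1069.9 on CAS and 804, 1078 and 1061 on WPI, and Mylip 259 to 285 over the 6 diets. Abca1 rose on WPI at FAT-40 (0.45 ± 0.14, adjusted p = 0.0091) and at FAT-55 (0.37 ± 0.14, 0.03), and was at -0.08 and -0.04 with the length and GC trend removed. Sqle did not pass in any hypothalamus comparison.

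**Figure D5:**
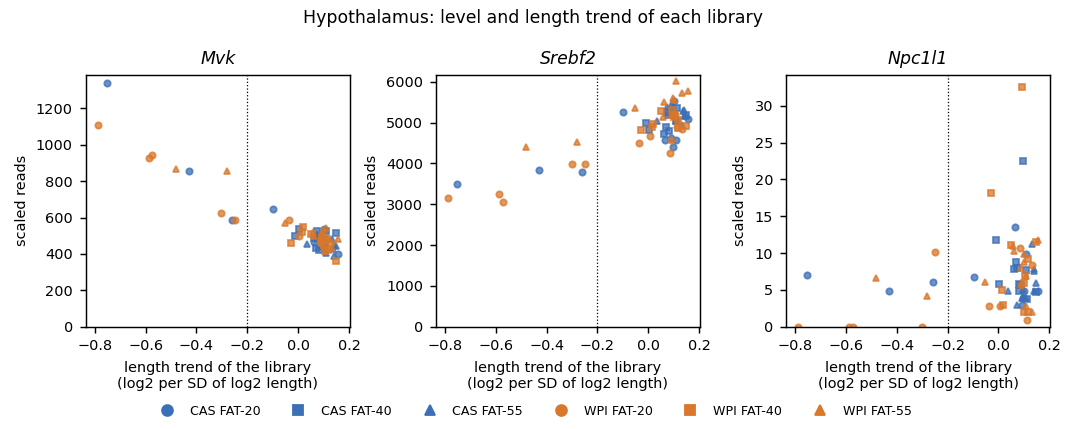
Scaled reads of Mvk, Srebf2 and Npc1l1 (y axes) against the length trend of each of 67 hypothalamus libraries (x axis), with colour for the protein source and shape for the fat level, and the dotted line at -0.2. The 10 libraries left of the line are high for Mvk and low for Srebf2.

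Of the 45 other genes, 40 were tested in hypothalamus, and 20 rose and 3 fell at FAT-40 on WPI (50% and 7.5%, against 38% and 14.6% of all genes) and 17 rose and 1 fell at FAT-55 (42.5% and 2.5%, against 29.5% and 5.84%). The libraries with a length trend under -0.2, 5 of them from WPI FAT-20, enter these comparisons, and the part of that trend was not tested for this list. Fads2 and Fads1, which desaturate fatty acids, rose at FAT-55 by 0.36 ± 0.06 (adjusted p = 2.1e-06) and 0.28 ± 0.05 (adjusted p = 3.8e-05), and their response differed from that on CAS by 0.40 ± 0.08 (0.001) and 0.28 ± 0.07 (0.018). Apoa1, a lipoprotein gene of liver and intestine, rose at FAT-40 by 3.34 ± 0.49 on CAS (adjusted p = 1.3e-05) and 3.69 ± 0.48 on WPI (adjusted p = 2e-07), beside the enterocyte genes.

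Finally, pairs of genes were compared across mice, with the diet means removed. Over 22 relations, 15 had an adjusted p under 0.05 in a permutation test of Pearson's r (100000 two-sided resamples within diets, smallest possible p 1e-05). In jejunum, Sqle ran with Hmgcs1 (r = 0.88, rho = 0.84, n = 70, both p = 1e-05, adjusted 3.1e-05 and 3.7e-05) and with Srebf2 (r = 0.85, rho = 0.78, both p = 1e-05, adjusted 3.1e-05 and 3.7e-05). Without the 2 libraries farthest from the median of Sqle, r was 0.84 and 0.80. In liver these 2 relations had r = 0.68 and 0.82 (adjusted permutation p = 3.1e-05 for both). Over stem means the liver values were 0.41 (adjusted p = 0.2) and 0.75 (0.0032). In hypothalamus Sqle ran with Hmgcs1 (r = 0.53, adjusted p = 0.00011, and 0.067 over stem means). Its relation with Srebf2 did not pass there (r = -0.07, adjusted p = 0.61). The relation of Sqle and Insig1 did not pass in jejunum (r = 0.07, p = 0.6, adjusted 0.61; rho = 0.20, p = 0.1, adjusted 0.13), while in liver r was 0.41 (p = 0.0011, adjusted 0.0022; rho = 0.42, p = 0.00075, adjusted 0.0021) and was 0.41 without 2 libraries. Over stem means the liver value was 0.14 (adjusted p = 0.53). In hypothalamus the pair passed, with r = 0.47 (adjusted permutation p = 0.0012) and rho = 0.35 (adjusted 0.015). There r was 0.56 without 2 libraries and 0.61 over stem means (adjusted p = 0.067). The difference between the tissues in this relation was not tested. Cell type markers varied within diets in jejunum. On WPI FAT-20 the summed fat cell genes ran from 13.5 to 478 CPM and the smooth muscle genes from 810.2 to 4003. Removing diet means leaves this in, and its part in the jejunum correlations was not tested.

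Abcg5 and Abcg8, the head-to-head pair, ran together in jejunum (r = 0.92, rho = 0.89, permutation p = 1e-05 for both, adjusted 3.1e-05 and 3.7e-05, r = 0.90 without 2 libraries) and in liver (r = 0.88, rho = 0.84, the same p-values, r = 0.85 without 2). Over the means of 24 identifier stems, r for this pair was 0.97 and 0.83. Abca1 and Mylip, both known LXR targets, ran together in jejunum (r = 0.57, p = 1e-05, adjusted 3.1e-05; rho = 0.53, p = 2e-05, adjusted 6.3e-05; r = 0.51 without 2 libraries). In liver their r was -0.19 (p = 0.11, adjusted 0.15; rho = -0.20, p = 0.094, adjusted 0.13; r = -0.27 without 2). In hypothalamus it was of the opposite sign to jejunum (r = -0.36, permutation p = 0.0047, adjusted 0.0086; rho = -0.29, p = 0.027, adjusted 0.05; r = -0.34 without 2; adjusted p = 0.079 over stem means), and the difference between tissues was not tested. The length trend of hypothalamus libraries varied within diets (SD 0.33 on WPI FAT-20), and removing diet means leaves that in. Its part in the hypothalamus correlations was not tested. Sqle and Abca1 ran in opposite directions in jejunum (r = -0.44, permutation p = 0.00036, adjusted 0.00088; rho = -0.38, p = 0.0019, adjusted 0.0043; r = -0.37 without 2 libraries), and over stem means r was -0.29 with an adjusted p of 0.35. In liver this relation did not pass (r = -0.14, adjusted permutation p = 0.28). In hypothalamus r was -0.36 (adjusted p = 0.013) and rho -0.24 (adjusted p = 0.095).

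The level of the same gene in jejunum and liver of a mouse was compared for 5 genes. For Sqle r was 0.28 (permutation p = 0.036, adjusted 0.05; rho = 0.17, p = 0.18, adjusted 0.22) and 0.15 without 2 mice, so the value over single mice rests in part on those mice. Over the means of 24 identifier stems r for Sqle was 0.70 (permutation p = 0.0079, adjusted 0.025). For Hmgcs1 r was 0.29 (permutation p = 0.026, adjusted 0.038; rho = 0.26, p = 0.034, adjusted 0.058) and 0.21 without 2 (adjusted 0.14), so the call but not the direction depended on those mice. Over stem means r for Hmgcs1 was 0.46 (adjusted p = 0.15). The relation did not pass for Insig1 (r = 0.12, permutation p = 0.35, adjusted 0.39; rho = 0.16, p = 0.19, adjusted 0.22; r = 0.17 without 2) or Abcg5 (r = 0.19, permutation p = 0.13, adjusted 0.16; rho = 0.14, p = 0.28, adjusted 0.3; r = 0.22 without 2). For Abca1 r was -0.29 (permutation p = 0.025, adjusted 0.038; rho = -0.25, p = 0.048, adjusted 0.076) and -0.29 without 2. Over stem means r for Abca1 was -0.36, which did not pass (adjusted permutation p = 0.24).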

How the data were processed

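RNA was extracted with RNeasy columns from gut and liver and with Tri-reagent from brain tissue, per the labels' protocols. The submitters' processing notes name STAR, Trim Galore 0.61, DESeq2 1.24.0, FastQC and cutadapt, with GRCm38. Strand setting and annotation release: not given in the sources used here. The deposited gut and liver tables hold counts, which are whole reads per gene. Entries that named no gene were left out: multimapping 8% and 7.71% of all entries, reads without a feature 6.34% and 5.6%, ambiguous 5.23% and 5.2%, unmapped 3.45% and 5.3%. For hypothalamus the deposited values are a signal, counts divided by a size factor, and multiplying back by factors of 0.712 to 1.08 brought 100% of positive values to a whole read within 0.05.

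Jejunum and liver counts were tested with edgeR 4.0.16 (R 4.3.3; filterByExpr with a minimum count of 10 and total of 15, TMM, quasi-likelihood F-test), with 1 coefficient per diet. Log2 values of hypothalamus (pseudocount 1, genes kept at 10 or more in 10 or more libraries) and the jejunum minus liver differences of log2 CPM (prior count 2) were tested with limma 3.58.1 with a trend. P-values were adjusted by Benjamini-Hochberg over all genes tested, and a gene was called at an adjusted p under 0.05. They measure the spread between libraries, and mice that share an identifier stem may not be independent. A SE from edgeR is the fold change divided by the root of F. The 30 members, the other lists and the tests were chosen with earlier results of these data known. In each comparison full statistics went to up to 4 called members in each direction by adjusted p, each library group's levels to Sqle, Insig1, Hmgcs1, Abca1, Abcg5, Npc1l1 and Mylip and to a member called in the difference of the FAT-55 response, and of the other pathway genes up to 3 per comparison. CPM printed are TMM-scaled. Alternatives were DESeq2 1.42.0, other scaling, no filter, sums or means by stem, marker scores as covariates and, chosen after seeing the data, single marker scores, libraries left out, and removal of length and GC trends. The scripts were tested on simulated data.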

Additional observations from a re-analysis of the deposited data

Results flagged for a closer look

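CAS FAT-20 in hypothalamus (n = 10) was the sole group checked for libraries that stand apart, since larger groups were left out. Its replicate 6 stood apart from the other 9 for 10 of 27 genes, by the gap to the next library as a share of the group's range. It was the highest for Acat2 (1517 scaled reads, next 1079), Mvk (1338, next 857), Pmvk (1558, next 918), Idi1 (712, next 436), Fdft1 (5185, next 2818), Tm7sf2 (538, next 377), Msmo1 (2074, next 1408), Nsdhl (1111, next 623), Ebp (749, next 392) and Insig1 (2705, next 2075). Chance flags about 1 in 20 groups, and these flags share 1 library. Its length trend was -0.751, against a group mean of -0.092 ± 0.3 (SD, n = 10), and the part of that trend in these levels was not tested. WPI FAT-20 replicate 3, outside this check, had a length trend of -0.789. It was higher than CAS FAT-20 replicate 6 for Acat2 (1664), Fdft1 (5651), Tm7sf2 (578), Msmo1 (2541) and Insig1 (3685). It was lower for Mvk, Pmvk, Idi1, Nsdhl and Ebp.

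Genes whose response differed between tissues, by a test of the difference itself, are given as log2 differences, jejunum minus liver. For FAT-55 on CAS they were positive for Tm7sf2 (0.78), Stard4 (0.78), Hsd17b7 (0.42), Soat2 (0.41) and Ggps1 (0.21). They were negative for Fdps (-0.96), Mvk (-0.88), Hmgcs1 (-0.86), Mylip (-0.79), Mvd (-0.78), Acat2 (-0.59), Nsdhl (-0.49), Dhcr7 (-0.48) and Lss (-0.46). For FAT-55 on WPI they were positive for Insig1 (0.85), Soat2 (0.52), Stard4 (0.34) and Ggps1 (0.23). They were negative for Fdps (-1.04), Mvd (-0.94), Mvk (-0.92), Hmgcs1 (-0.72), Mylip (-0.66), Cyp51 (-0.64), Nsdhl (-0.55) and Acat2 (-0.48). For WPI against CAS the difference was 0.29 for Acat2, 0.23 for Sc5d and -0.56 for Sqle. Within liver, the response of Tm7sf2 to FAT-55 differed between the proteins by 0.51, WPI minus CAS.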

How the results depend on the processing

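DESeq2 and the median-of-ratios scaling kept the direction and the call of 72 of 72 called jejunum values and 44 of 44 liver values, and log2(value + 10) did so for 19 of 19 in hypothalamus. Counts of called members moved by over 1.5 times as follows. In jejunum, fat cell and smooth muscle scores together, the fat cell score alone or the smooth muscle score alone gave 0, 0 and 0 at FAT-40 on CAS and on WPI, 1, 1 and 5 at FAT-55 on CAS, and 1, 2 and 4 at FAT-55 on WPI. Both scores, or the fat cell score alone, gave 0 for WPI at FAT-40. Sums by identifier stem gave 3 at FAT-40 on CAS, 5 at FAT-40 on WPI, 1 for WPI at FAT-20, 0 at FAT-40 and 9 over all fat levels. Without the 2 ileal libraries there were 5 at FAT-40 on WPI, and 1 and 2 for WPI at FAT-20 and FAT-40. DESeq2 gave 5 and 3 there, median-of-ratios scaling 4 at FAT-20 and no filter 0 at FAT-40. In liver, sums by stem gave 9 and 0 at FAT-40 on CAS and WPI, 7 and 1 at FAT-55, 0 and 0 for WPI at FAT-40 and FAT-55, 3 over all fat levels and 0 for the difference of responses. No filter gave 3 at FAT-55 on WPI and 0 for that difference, and DESeq2 gave 2 for WPI at FAT-40. Means by stem gave 1 in the comparison of jejunum with liver for WPI and 7 of the 22 correlations.

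In hypothalamus at FAT-40 on WPI, leaving out the 10 libraries gave 2, removal of length and GC trends 6, edgeR 17 and means by stem 0. At FAT-55 on WPI these were 5 without the 10 libraries, 4 with edgeR and 1 by stem means, and edgeR gave 4 at FAT-55 on CAS. For WPI at FAT-55 the 10 libraries gave 4 and the trends 1, and oligodendrocyte and thalamus scores gave 4 at FAT-20. Over all fat levels, WPI had 2 without the 10 libraries and 0 by stem means or without the filter. For the difference of responses, the 10 libraries, the trends and edgeR gave 1 each and the scores 2. Reversed were Abca1 (-0.08), Lss (-0.03) and Srebf2 (-0.13) at FAT-40 and Abca1 (-0.04) at FAT-55 with the trends removed, and Fdft1 (0.10) at FAT-40 without the 10 libraries. The cause was not tested. Jejunum and liver were paired within mice. Between diets, no paired analysis was possible because the labels give no replicate numbers and each mouse ate 1 diet. Of 1045 values of called members under an alternative, 737 kept direction and call, 303 kept direction and lost the call, and 5 reversed. Few reads lie behind Fdps in jejunum (at most 3.81 CPM) and Npc1l1 in hypothalamus (median 5.89 scaled reads), beside the shared sequence and the intestinal genes given for them.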
